A study of Homo sapiens with 3 samples.

Results

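The long noncoding genes that host small nucleolar RNAs (snoRNAs) were followed through bulk RNA sequencing of RWPE1 cells, an immortalized epithelial line from normal adult human prostate. The members were the rows of the count table whose symbol is SNHG and a number, plus GAS5, ZFAS1, DANCR and EPB41L4A-AS1. They came to 32 of 58037 genes. The rule used names only, but it was chosen with earlier results of these data known. Of the 32, 28 averaged 1 CPM or more over the 3 libraries (CPM, counts scaled to library sizes with TMM factors), and all 32 had a count in every library.

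There was 1 library each of OLFM4-wild, OLFM4-knockout and OLFM4-active RWPE1 cells, prepared from total RNA after removal of ribosomal RNA. Per the study's methods, knockout cells came from a CRISPR/Cas9 double nickase plasmid and the GFP reporter cells with the wild gene from CRISPR activation plasmids. Cells were selected with puromycin and sorted for GFP, so that the stable clones carry the plasmids as well as the genotype. The labels list OLFM4-wild and OLFM4-active as separate libraries, and whether the OLFM4-wild library came from parental cells or from a clone with activation plasmids is not given in the sources used here. OLFM4, the targeted gene, had 214 counts (11.8 CPM) in OLFM4-wild, 131 (2.55 CPM) in OLFM4-knockout and the fewest, 16 (0.670 CPM), in the library labelled OLFM4-active, which goes against that label. That library is therefore called by its label throughout.

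SnoRNAs are short nucleolar RNAs that guide modification of other RNAs. Those with boxes C and D guide ribose methylation, those with boxes H and ACA guide pseudouridylation, and scaRNAs are their relatives in Cajal bodies. Most human snoRNAs are cut from introns after splicing of a host transcript. In the noncoding hosts the intron carries the stable product, while the spliced exons are often degraded by nonsense-mediated decay, and several of these hosts start with the pyrimidine run known from messenger RNAs of the translation machinery.

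Totals were 16309906 counts in OLFM4-wild, 58837147 in OLFM4-knockout and 23224216 in the library labelled OLFM4-active. With 1 library per condition no difference between conditions could be tested, and the 95% intervals (Clopper-Pearson) cover counting error only. All 6 basal epithelial markers on the list passed 1 CPM, and their summed level was 18751 CPM in OLFM4-wild, 41146 in OLFM4-knockout and 22727 in the library labelled OLFM4-active. Of the other markers, 2 of 6 luminal, 1 of 4 leukocyte, 2 of 4 fibroblast and 0 of 3 endothelial genes passed 1 CPM, among them CD68, ACP3 and COL1A1. Summed levels over the 3 libraries ran from 6.53 to 10.6 CPM for luminal, 19.8 to 31.4 for leukocyte, 0.0837 to 0.605 for endothelial and 22.8 to 34.0 for fibroblast markers. The defining markers KLK2, CD3E, CDH5 and LUM were at 0 in each library.

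The 6 snoRNAs shown here lie in annotated exons of their host, and the row of each came to at least 20% of the host's counts in OLFM4-wild. Letters are DNA from GRCh38 at the positions of GENCODE 44, and capitals mark the ACA that ends 3 bases before the 3′ end or, in SNORD60, the C box TGATGA and the last CTGA, its D box.
SNORA73A in SNHG3, chr1:28507366-28507571, plus strand: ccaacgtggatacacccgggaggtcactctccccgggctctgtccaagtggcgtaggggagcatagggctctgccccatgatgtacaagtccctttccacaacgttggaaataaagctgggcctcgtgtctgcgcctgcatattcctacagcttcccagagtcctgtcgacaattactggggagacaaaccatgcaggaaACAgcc
SCARNA16 in SNHG20, chr17:77089307-77089493, plus strand: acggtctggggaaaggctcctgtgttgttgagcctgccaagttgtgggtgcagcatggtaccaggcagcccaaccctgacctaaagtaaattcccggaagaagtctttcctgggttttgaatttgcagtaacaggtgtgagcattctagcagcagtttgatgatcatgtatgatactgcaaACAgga
SNORA50C in SNHG25, chr17:64146339-64146471, plus strand: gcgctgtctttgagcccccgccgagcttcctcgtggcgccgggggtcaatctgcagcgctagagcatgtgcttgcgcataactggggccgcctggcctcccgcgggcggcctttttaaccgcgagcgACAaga
SNORA78 in SNHG9, chr16:1965184-1965310, plus strand: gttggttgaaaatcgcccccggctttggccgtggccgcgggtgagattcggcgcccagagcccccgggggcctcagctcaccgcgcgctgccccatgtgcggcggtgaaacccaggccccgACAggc
SNORD60 in SNHG19, chr16:2155023-2155105, minus strand: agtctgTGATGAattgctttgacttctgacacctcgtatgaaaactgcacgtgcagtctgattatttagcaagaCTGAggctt
SNORA61 in SNHG12, chr1:28579764-28579893, minus strand: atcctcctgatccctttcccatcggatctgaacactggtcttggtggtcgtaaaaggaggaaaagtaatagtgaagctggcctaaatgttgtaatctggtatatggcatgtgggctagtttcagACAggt

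These sequences matter because reads of a snoRNA in a host exon could also be counted on the host row. Rows at the same place held the same or nearly the same counts: SNORA16A had 2 entries, with 62 and 62 counts in OLFM4-wild, 280 and 275 in OLFM4-knockout, and 104 and 104 in the library labelled OLFM4-active. A read pair over several genes could thus be counted on each of them. The snoRNAs in the exons of SNHG10 had more counts than the host row in each library. Those of SNHG17 did in OLFM4-wild and OLFM4-knockout but not in the library labelled OLFM4-active. Where they did, not all of those reads were counted on the host. GENCODE 44 placed 140 snoRNA and scaRNA entries inside the members, 84 of them in SNHG14, and 24 members had such an entry in an annotated exon.

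The levels in the 3 libraries open the account. SNHG3, host of the SNORA73 snoRNAs that act in ribosomal RNA processing, had the highest counts of any member at 672, 1545 and 927 CPM in OLFM4-wild, OLFM4-knockout and the library labelled OLFM4-active. SNHG29, host of SNORD49A, SNORD49B and SNORD65, had 614, 804 and 641 CPM. ZFAS1, antisense to the start of ZNFX1 and host of the SNORD12 family, had 308, 415 and 370 CPM. These members and GAS5, a transcript known to build up in growth arrest, lay well above the rest. GAS5 had 224, 341 and 269 CPM.

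Divided by the length of the canonical transcript, the level of SNHG29 came to 1386, 1814 and 1447 CPM per kb. SNHG3, GAS5, SNHG16 and SNHG32 followed in that order in every library. The place of SNHG3 rests on SNORA73A: without snoRNA counts it was at 28.4, 66.3 and 56.5 CPM per kb, which ranked 9, 7 and 8 of 28. In OLFM4-wild SNHG3 at 305 CPM per kb (interval 300 to 311) and GAS5 at 291 (283 to 301) were not apart by their counting intervals. In OLFM4-knockout SNHG3 at 702 and GAS5 at 444 were. The order of the 28 members changed little between libraries, with a Spearman rho of 0.94 between OLFM4-wild and OLFM4-knockout and 0.97 with the library labelled OLFM4-active. These rho values describe genes within shared libraries and carry no test.

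**Figure D1:**
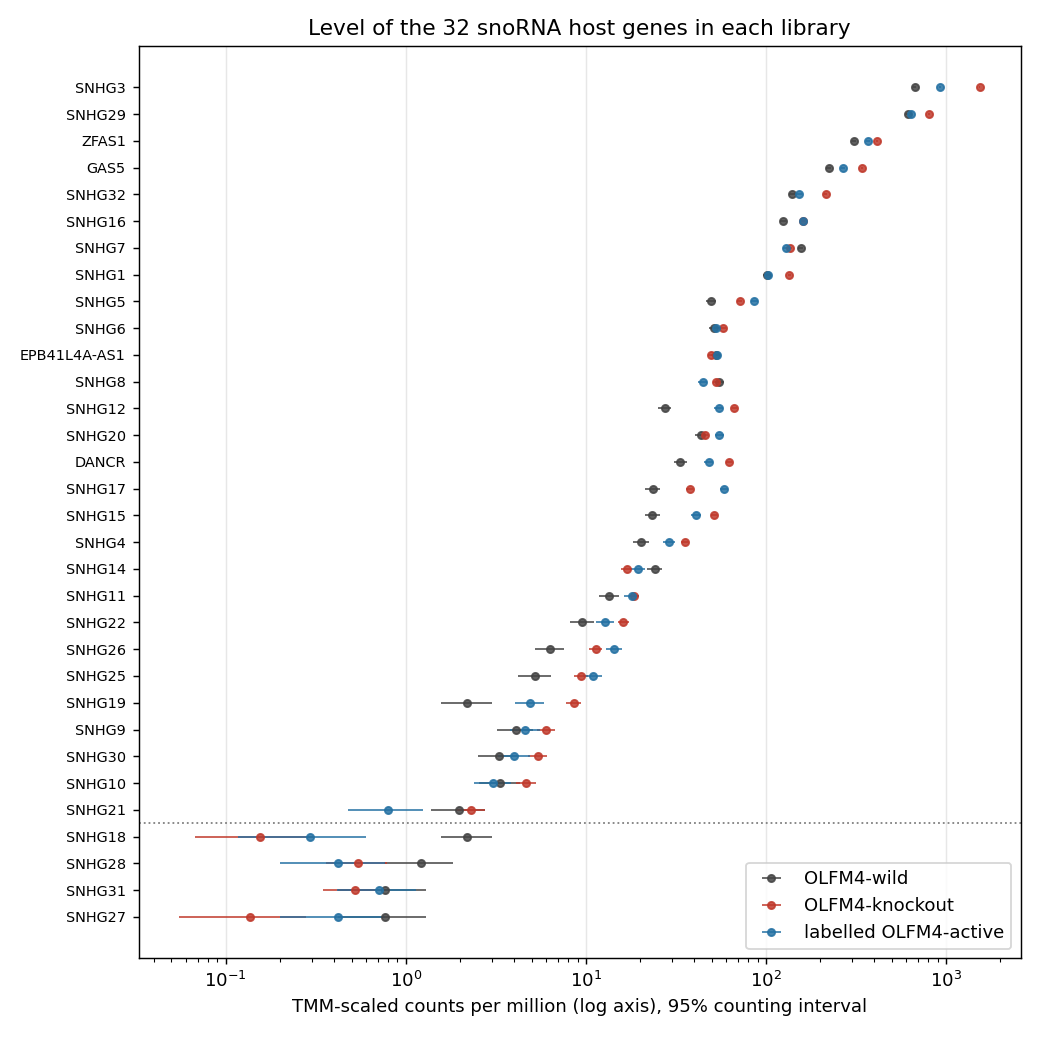
Level of each of the 32 snoRNA host genes in TMM-scaled CPM on a log axis, with 1 point per library and bars for the 95% counting interval; members under the dotted line have a mean below 1 CPM. The OLFM4-wild point is the lowest for 22 of the 28 members above the line, while SNHG7, SNHG8 and SNHG14 have their highest point there. No such count was made over all genes.

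Together the 32 members held 0.312% of counts in OLFM4-wild, 0.383% in OLFM4-knockout and 0.347% in the library labelled OLFM4-active, or 2799, 4386 and 3371 CPM. On the log2 scale the sum was 0.65 (0.63 to 0.66) higher in OLFM4-knockout than in OLFM4-wild. Without SNHG3 the difference was 0.42 (0.40 to 0.43). The shares in raw counts and the scaled levels differ because TMM factors were 1.11, 0.872 and 1.03.

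Most members were higher in OLFM4-knockout than in OLFM4-wild. Of 28, 24 had a log2 fold change above 0, beside 56.7% of the 16600 genes that averaged 1 CPM or more. For 22 members the counting interval lay above 0, as it did for 7037 of the 16600 genes. With library totals in place of TMM, 21 of 28 were above 0. The members' median was 0.54 against 0.10 over all genes and 0.05 over the other 2246 long noncoding genes. Above 1 on the log2 scale lay 4 members, SNHG19, SNHG12, SNHG3 and SNHG15, beside 5.77% of genes, and below -1 lay none, beside 7.56% of genes. SNHG12 fell to 0.85 without the counts of its snoRNAs while SNHG20 reached 1.003, and with library totals only SNHG19 was above 1.

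SNHG19, host of SNORD60, had 40 counts (2.20 CPM) in OLFM4-wild, 441 (8.59 CPM) in OLFM4-knockout and an intermediate 117 (4.90 CPM) in the library labelled OLFM4-active. OLFM4-wild was the lowest and the 3 counting intervals did not overlap. The log2 fold change was 1.95 (1.5 to 2.47) in OLFM4-knockout and 1.14 (0.62 to 1.71) in the library labelled OLFM4-active. SNHG19 stood at the 99.3 percentile of all genes in OLFM4-knockout.

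SNHG12 lies 68 kb from SNHG3 on chromosome 1, on the opposite strand, and hosts SNORA16A, SNORA44, SNORA61 and SNORD99. It had 498, 3432 and 1308 counts, or 27.4, 66.9 and 54.7 CPM. OLFM4-wild was again the lowest, and the log2 fold changes were 1.29 (1.15 to 1.43) and 1.0 (0.85 to 1.15). SNHG15, host of SNORA9, had 23.4, 51.9 and 41.1 CPM, with log2 fold changes of 1.14 (1.0 to 1.30) and 0.81 (0.64 to 0.98). DANCR, named for restraining differentiation of epidermal progenitors and host of SNORA26, had 33.6, 62.6 and 48.1 CPM. Its log2 fold changes were 0.90 (0.77 to 1.03) and 0.52 (0.38 to 0.66).

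SNHG3 itself was 1.20 (1.17 to 1.23) higher in OLFM4-knockout and 0.46 (0.43 to 0.50) higher in the library labelled OLFM4-active. GAS5 was 0.61 (0.56 to 0.66) and 0.26 (0.21 to 0.32) higher. SNHG1, the host of SNORD22 and of SNORD25 to SNORD30, had 102, 135 and 103 CPM. It was higher in OLFM4-knockout by 0.41 (0.34 to 0.49), whereas its interval in the library labelled OLFM4-active included 0 (0.01, -0.07 to 0.10).

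Of the 28 members, 4 lay below 0 in OLFM4-knockout and 5 in the library labelled OLFM4-active. SNHG14, the imprinted transcript of the Prader-Willi region, had 24.1 CPM in OLFM4-wild, 16.9 in OLFM4-knockout and 19.5 in the library labelled OLFM4-active. Of the 28 it lay farthest below 0 in OLFM4-knockout at -0.52 (-0.68 to -0.35). In the library labelled OLFM4-active it stood at -0.31 (-0.50 to -0.11). Without the counts of its snoRNAs it was at -0.37 (-0.55 to -0.20) and -0.18 (-0.38 to 0.03), and the second interval included 0. SNHG7 had 156, 136 and 129 CPM and log2 fold changes of -0.20 (-0.26 to -0.14) and -0.28 (-0.35 to -0.20). SNHG8 was at -0.06 (-0.16 to 0.05) in OLFM4-knockout and EPB41L4A-AS1 at -0.09 (-0.20 to 0.02), and for both the interval included 0. SNHG8 was at -0.31 (-0.44 to -0.19) in the library labelled OLFM4-active.

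**Figure D2:**
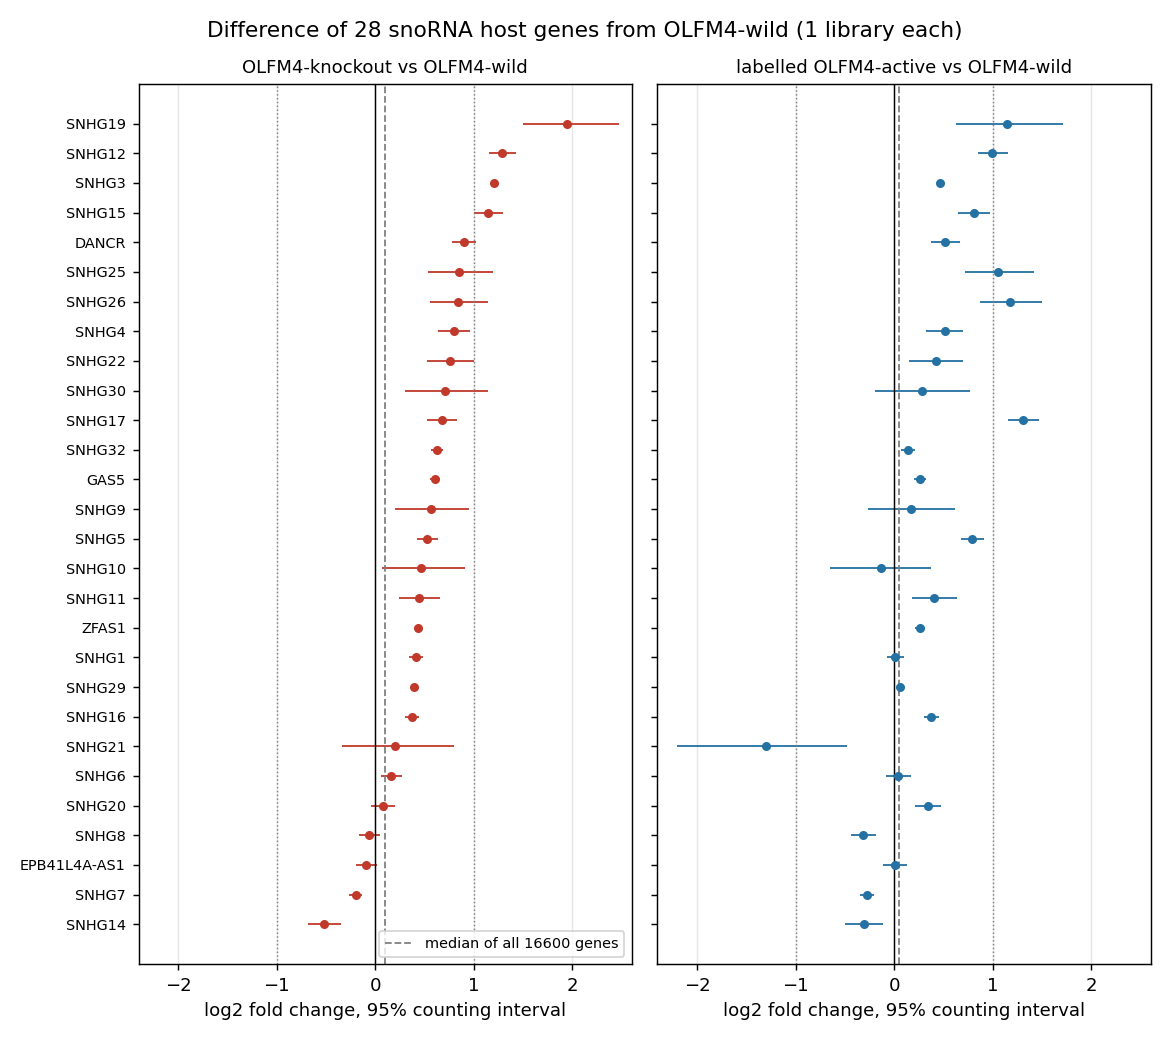
Log2 fold change of the 28 snoRNA host genes that averaged 1 CPM or more against OLFM4-wild, for OLFM4-knockout on the left and the library labelled OLFM4-active on the right, with bars for the 95% counting interval and a dashed line at the median of all 16600 genes. Points lie right of 0 for 24 members on the left and 23 on the right, and SNHG21 is the one point left of -1.

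In the library labelled OLFM4-active, 23 of 28 members lay above OLFM4-wild, beside 53.9% of genes (19 of 28 with library totals), with a median of 0.31 against 0.05 over all genes. Above 1 were 4 members, beside 3.78% of genes. They were SNHG17, SNHG26, SNHG19 and SNHG25. Without snoRNA counts 3 were above 1, as SNHG25 was then at 0.06, and the row of SNHG17 could not be so treated. SNHG17, host of the SNORA71 family, had 23.6, 37.8 and 58.4 CPM and was highest in the library labelled OLFM4-active at 1.31 (1.15 to 1.47), with 0.68 (0.53 to 0.83) in OLFM4-knockout. SNHG26 had 6.33, 11.3 and 14.4 CPM and a log2 fold change of 1.18 (0.87 to 1.5), with 0.84 (0.55 to 1.14) in OLFM4-knockout. SNHG25 had 5.23, 9.47 and 10.9 CPM and one of 1.06 (0.72 to 1.42), with 0.85 (0.54 to 1.19) in OLFM4-knockout.

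Below -1 lay 1 member, SNHG21, beside 6.73% of genes. SNHG21 had 36, 118 and 19 counts, and its value of -1.30 (-2.20 to -0.48) rests on those 19. In OLFM4-knockout it was at 0.20 (-0.33 to 0.80). Of its exon bases, 72.9% are shared with ENSG00000252690 on the same strand, so its reads cannot be told from those of that gene. Both comparisons use the same OLFM4-wild library, so the 22 members above 0 in both and the 3 below 0 in both are given as values only. No share over all genes was counted for them.

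OLFM4-knockout and the library labelled OLFM4-active share no library between them. In that comparison 20 of 28 members were higher in OLFM4-knockout, beside 56.7% of genes (16 of 28 with library totals), with a median of 0.29 against 0.08. SNHG21 alone was above 1 at 1.5 (0.82 to 2.31), beside 2.95% of genes, and none was below -1, beside 3.39% of genes. SNHG17 was lowest at -0.63 (-0.73 to -0.53). The highest of the 3 levels was that of OLFM4-knockout for 18 members, of the library labelled OLFM4-active for 7 and of OLFM4-wild for 3. The same count was not made over all genes, so these numbers have no background beside them.

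By the class of snoRNA carried the values were as follows, with no test between classes. In OLFM4-knockout the 11 hosts of box C/D snoRNAs had a median log2 fold change of 0.43, with 10 above 0. The 10 hosts of box H/ACA snoRNAs had a median of 0.62, with 7 above 0. The 4 hosts of scaRNAs (SNHG10, SNHG20, SNHG21 and SNHG22) had a median of 0.33, and all were above 0. The intervals of SNHG20 (-0.04 to 0.20) and SNHG21 (-0.33 to 0.80) included 0, however. Over all genes 56.7% were above 0 in OLFM4-knockout. GAS5, SNHG12 and SNHG25 carry snoRNAs of both boxes and lay at 0.61, 1.29 and 0.85. In the library labelled OLFM4-active the medians were 0.27, 0.44 and 0.10 for box C/D, box H/ACA and scaRNA hosts. Above 0 in that library were 10 of 11, 8 of 10 and 2 of 4, beside 53.9% of genes. GAS5, SNHG12 and SNHG25 were there at 0.26, 1.0 and 1.06.

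The 4 members under 1 CPM on average were below 0 in both comparisons with OLFM4-wild, on few counts. Of the 8334 genes under 1 CPM with a count in each library, 70.9% were below 0 in OLFM4-knockout and 61% in the library labelled OLFM4-active. SNHG18 had 40 counts in OLFM4-wild (2.20 CPM) and 8 in OLFM4-knockout (0.156 CPM). The library labelled OLFM4-active had 7 (0.293 CPM). Its log2 fold changes were -3.75 (-5.13 to -2.71) and -2.83 (-4.31 to -1.74), and the level of OLFM4-wild did not overlap the others. SNHG27 had 14, 7 and 10 counts, with -2.45 (-4.05 to -1.09) and -0.86 (-2.21 to 0.39). SNHG28 had 22, 28 and 10, with -1.16 (-2.01 to -0.28) and -1.49 (-2.77 to -0.39). SNHG31 had 14, 27 and 17, with -0.57 (-1.53 to 0.49) and -0.12 (-1.22 to 1.02), and both of its intervals included 0. Of the exon bases of SNHG28, 90.8% belong also to ENSG00000256029.

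What share of each host row came from its snoRNAs differed widely. SNORA73A, whose sequence is printed first, had 11068, 71824 and 19174 counts, which is 90.7%, 90.6% and 86.6% of the SNHG3 row. SCARNA16 had 725, 1983 and 1216 counts, or 91.7%, 84.1% and 92.2% of the SNHG20 row. Among the other members, shares in OLFM4-wild were for example 69.5% for SNHG25, 67.6% for SNHG9, 65.0% for SNHG19 and 41.4% for SNHG12. In 13 of the 22 members where the subtraction left counts in every library, the share in OLFM4-wild was at least 10%. For SNHG3 the gene version is the same in the table and in GENCODE 44. For the others named here the version differs, so the exons used in counting may differ from those used for the subtraction.

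Without those snoRNA counts, SNHG3 kept 1136, 7489 and 2969 counts, and its level per kb in OLFM4-wild was 28.4 CPM in place of 305. The remainder was 1.22 (1.13 to 1.31) higher in OLFM4-knockout, next to 1.20 for the whole row. In the library labelled OLFM4-active it was 0.99 (0.89 to 1.09) higher, where the whole row gave 0.46. SNHG20 kept 66, 376 and 103 counts, and its log2 fold change in OLFM4-knockout moved from 0.08 to 1.0 (0.63 to 1.41). SNHG12 moved from 1.29 to 0.85 (0.67 to 1.03), SNHG1 from 0.41 to 0.21 (0.13 to 0.30) and SNHG19 from 1.95 to 2.23 (1.5 to 3.18).

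In the library labelled OLFM4-active the remainder of SNHG1 was lower than in OLFM4-wild at -0.32 (-0.42 to -0.22). That of SNHG25 was at 0.06 (-0.66 to 0.81) where the whole row gave 1.06, and in OLFM4-knockout it was at 0.71 where the whole row gave 0.85. Over the 22 members the value moved by more than 0.2 for 3 in OLFM4-knockout and for 7 in the library labelled OLFM4-active. SNHG17 and SNHG10 could not be treated so, since the snoRNAs in their GENCODE 44 exons sum to 119% and 775% of the row in OLFM4-wild. For SNHG17 the sum was 143% of the row in OLFM4-knockout and 78.1% in the library labelled OLFM4-active. GAS5 has 11 snoRNA genes inside it in RefSeq, and none as an entry in GENCODE 44, so its row was left whole.

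**Figure D3:**
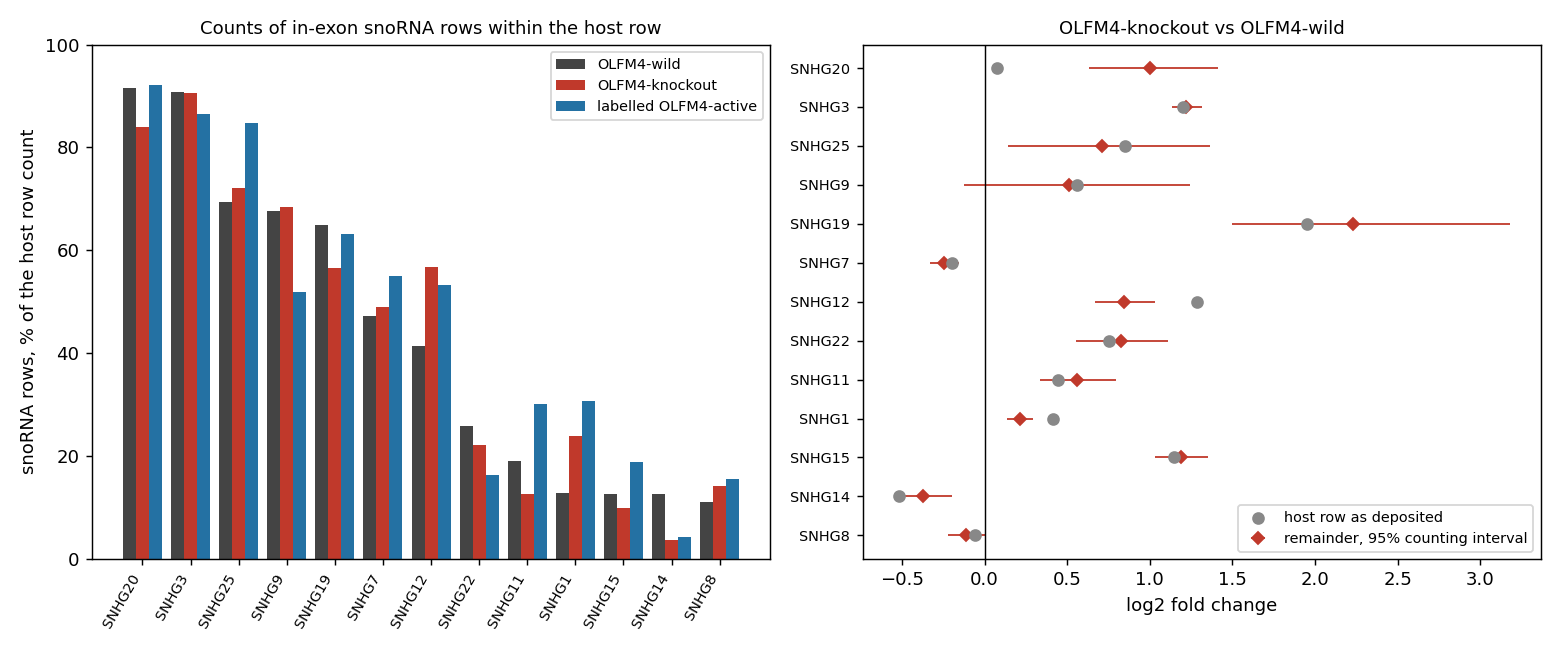
Left, counts of the snoRNA rows in a host's exons as a percentage of the host row, for the 13 hosts with at least 10% in OLFM4-wild, with 1 bar per library; right, log2 fold change of OLFM4-knockout against OLFM4-wild for the row as deposited (grey) and for the remainder (red, 95% counting interval). The bars of SNHG3 and SNHG20 reach over 80% in each library, and the largest distance between grey and red is that of SNHG20.

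The snoRNAs inside the members were compared in the same way. Summed by host, 20 members had at least 20 snoRNA counts in each library. The snoRNA sum was above 0 in OLFM4-knockout for 16 of them, with a median log2 fold change of 0.77 beside 0.52 for the host rows, which in part hold the same reads. In the library labelled OLFM4-active it was above 0 for 16, with a median of 0.65 beside 0.38. Of all 148 snoRNA and scaRNA genes with at least 20 counts in each library, 81.1% (median 0.74) and 88.5% (median 0.62) were above 0, so the snoRNAs of the members lay near the background of all snoRNAs. All snoRNA and scaRNA genes of the table held 0.472%, 0.810% and 0.716% of counts.

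The snoRNA sum was above the host row for 12 of the 20 hosts in OLFM4-knockout and 13 in the library labelled OLFM4-active. It was below the host row in OLFM4-knockout for example in SNHG3 (0.99 against 1.20) and SNHG15 (0.79 against 1.14). Some hosts and their snoRNAs stood apart. SNORA74A and SNORA74D of SNHG4 lie in no exon of their host in the annotation used here. The version of SNHG4 in the count table differs, however, so whether the host row shares counts with them is not known. SNORA74A and SNORA74D summed to 1362, 8746 and 4151 counts. Their sum was higher by 1.18 (1.10 to 1.27) in OLFM4-knockout and 1.21 (1.12 to 1.30) in the library labelled OLFM4-active. SNHG4 was higher by 0.80 (0.63 to 0.96) and 0.51 (0.33 to 0.70). The SNORD12 snoRNAs of ZFAS1 summed to 121, 977 and 492 counts, 1.51 (1.24 to 1.80) and 1.62 (1.34 to 1.93) higher, whereas ZFAS1 was 0.43 (0.39 to 0.47) and 0.27 (0.22 to 0.31) higher. SNORA13 of EPB41L4A-AS1 had 66, 349 and 208 counts and was higher by 0.90 (0.52 to 1.31) and 1.25 (0.86 to 1.68), against -0.09 and 0.01 for its host.

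Of the 84 snoRNA entries in SNHG14, mostly SNORD115 and SNORD116 copies, 21 had a count in any library. They summed to 58 counts in OLFM4-wild, 31 in OLFM4-knockout and 20 in the library labelled OLFM4-active. The log2 fold changes of the sum against OLFM4-wild were -2.39 (-3.08 to -1.75) and -1.91 (-2.74 to -1.18). These copies are near-identical and only uniquely mapped reads were counted, so their counts are uncertain.

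**Figure D4:**
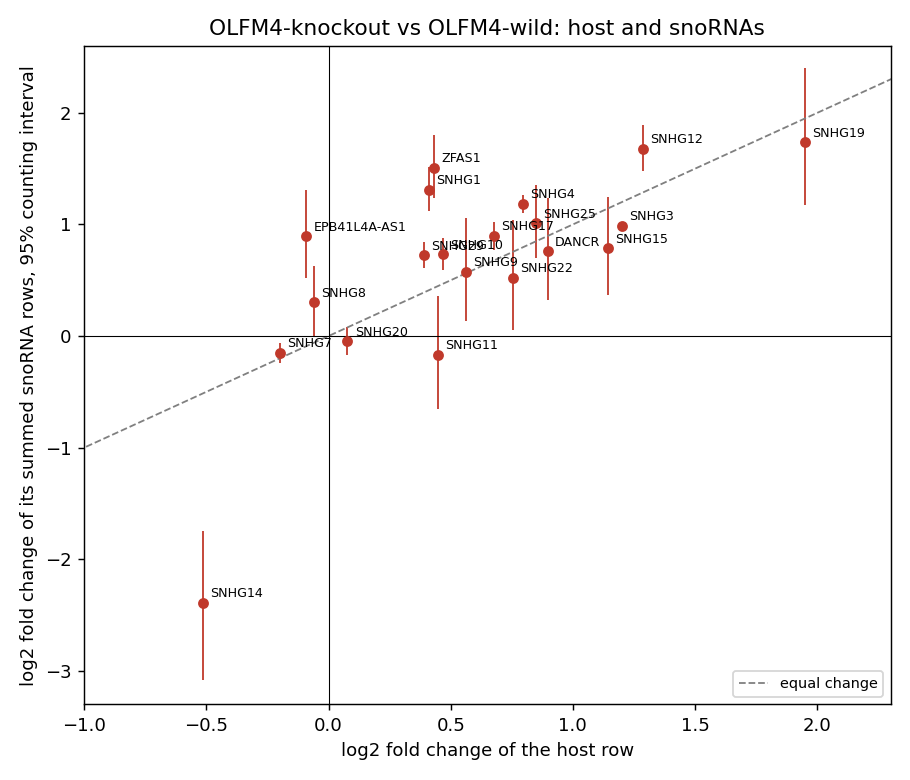
Log2 fold change of OLFM4-knockout against OLFM4-wild for the summed snoRNA rows of a host (vertical, 95% counting interval) against the host row (horizontal), for the 20 hosts with at least 20 snoRNA counts in each library; the dashed line marks equal change. The axes share reads where the snoRNA lies in an exon, ZFAS1, SNHG1 and EPB41L4A-AS1 lie well above the line, and SNHG14 lies far below it.

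The annotated starts were read from RefSeq windows of GRCh38.p14 that run from 250 bases before to 50 after each start, and 28 of the 32 members had one. In 9 of the 28 (32.1%) the start was a C followed by at least 3 more C or T, as in 5.45% of all 35116 windows. The 8 of these members that averaged 1 CPM or more are printed from 10 bases before the start, with the run of C and T from the start on in capitals.
SNHG12, chr1:28581854-28581883, minus strand: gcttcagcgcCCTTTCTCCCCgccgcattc
SNHG19, chr16:2155339-2155368, minus strand: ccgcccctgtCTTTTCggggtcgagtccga
SNHG4, chr5:139274091-139274120, plus strand: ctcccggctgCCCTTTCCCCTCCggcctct
SNHG5, chr6:85678714-85678743, minus strand: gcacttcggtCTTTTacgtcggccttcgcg
SNHG7, chr9:136728165-136728194, minus strand: ccttctcgtcCTCTgcgtgcgccggaggct
SNHG26, chr7:22854230-22854259, plus strand: taaacttgatCTCCgcagtgccctcccttt
SNHG32, chr6:31834906-31834935, plus strand: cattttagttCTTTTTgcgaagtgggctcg
ZFAS1, chr20:49278632-49278661, plus strand: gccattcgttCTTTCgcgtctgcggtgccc

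The run spans 11 bases in SNHG12 and 13 in SNHG4. In OLFM4-knockout the 8 members with the run had a median log2 fold change of 0.71, with 7 above 0. The 16 without it had 0.43, with 13 above 0, and over all genes 56.7% were above 0. In the library labelled OLFM4-active the medians were 0.65 and 0.27. The palindrome CACGTG, an E-box bound by MYC and its relatives among others, was in 2 member windows (7.14%), those of SNHG7 and SNHG30, beside 7.26% of all windows. These matches are letters in a window and nothing was measured at them.

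Length went with the comparison of OLFM4-knockout with OLFM4-wild. Over all genes the median log2 fold change was 0.33 for canonical transcripts under 500 bases, 0.27 from 500 to 1000, 0.29 from 1000 to 2000, 0.13 from 2000 to 4000 and -0.10 over 4000. Genes under 500 bases took 11.0% of counts in OLFM4-wild, 14.9% in OLFM4-knockout and 10.2% in the library labelled OLFM4-active. The members' medians in the same classes were 0.56 (5 members), 0.20 (3), 0.65 (10), 0.80 (7) and -0.06 (3), the last being ZFAS1, SNHG8 and SNHG14. Against the 5466 genes between the members' length quartiles the background median was 0.25 in OLFM4-knockout and 0.03 in the library labelled OLFM4-active. The part of length in the members' values was not tested.

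**Figure D5:**
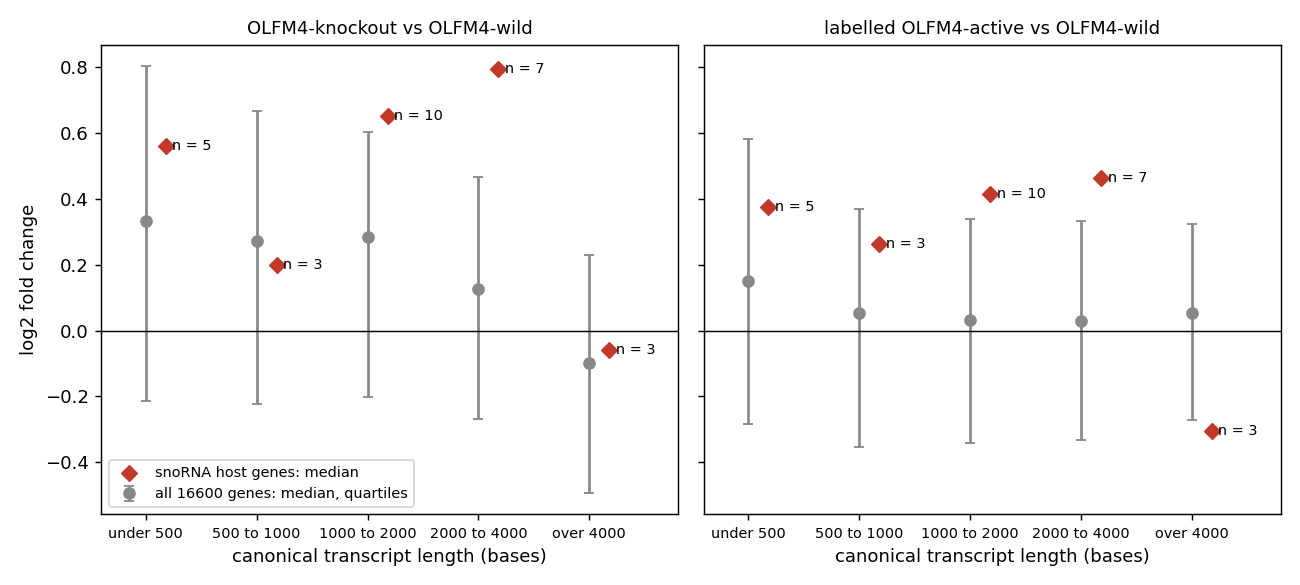
Median log2 fold change against OLFM4-wild by canonical transcript length, for all 16600 genes (grey, bars from the first to the third quartile) and for the snoRNA host genes (red, with their number). In OLFM4-knockout the grey medians run from 0.33 in the shortest class to -0.10 in the longest, while in the library labelled OLFM4-active all grey medians lie between 0.03 and 0.15.

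Ribosomal protein genes that host snoRNAs share the intronic cargo but are translated, and their starts were not read here. All 28 were above 0 in OLFM4-knockout, beside 56.7% of genes, with a median of 0.42. In the library labelled OLFM4-active 15 of 28 were, beside 53.9% of genes, with a median of 0.03. Other protein-coding hosts were above 0 for 129 of 190 (median 0.20) and 145 of 190 (median 0.22). Long noncoding hosts outside the members were above 0 for 6 of 13 (median -0.27) and 5 of 13 (median -0.25). The most abundant of these were higher in OLFM4-knockout, at 0.99 (ENSG00000264772), 1.27 (ENSG00000270066), 2.08 (ENSG00000262202) and 1.37 (MIR31HG). Their mean levels were 12.5 to 652 CPM, while the 7 hosts below 0 in OLFM4-knockout averaged at most 10.5 CPM each. No snoRNA counts were subtracted from these 13 rows. Among the 7 is ENSG00000252690, which shares 72.9% of the exon bases of the member SNHG21, so their reads cannot be told apart. The members' own medians were 0.54 and 0.31.

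Genes that act on snoRNAs and host transcripts were read from lists chosen with earlier results of these data known. For comparison, 56.7% of all genes were above 0 in OLFM4-knockout and 53.9% in the library labelled OLFM4-active. All 8 core proteins of the snoRNA particles were above 0 in both libraries, with medians of 0.56 and 0.73. NOP56, a box C/D core protein, was highest in OLFM4-knockout at 1.23 (1.16 to 1.31), with 99.0, 233 and 198 CPM. GAR1, of the box H/ACA core, was lowest there at 0.19 (-0.13 to 0.53) but highest in the library labelled OLFM4-active at 1.53 (1.21 to 1.87), with 5.50, 6.29 and 15.9 CPM. There NHP2 was the lowest, at 0.03 (-0.08 to 0.14), with 0.67 (0.58 to 0.77) in OLFM4-knockout.

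Of 11 assembly factors 11 were above 0 in OLFM4-knockout (median 0.55) and 8 in the library labelled OLFM4-active (median 0.59). NUFIP1 was highest in both at 1.15 (0.94 to 1.38) and 1.05 (0.81 to 1.29). The lowest were ZNHIT6 in OLFM4-knockout at 0.24 (0.07 to 0.42) and PIH1D1 in the library labelled OLFM4-active at -0.30 (-0.46 to -0.14), with 0.60 (0.47 to 0.73) for PIH1D1 in OLFM4-knockout. Of 6 enzymes that release or trim snoRNAs, 5 were above 0 in each library, with medians of 0.31 and 0.24. DBR1, which opens the intron lariat, was highest at 0.97 (0.79 to 1.16) and 0.39 (0.18 to 0.61), and XRN1 was lowest at -0.42 (-0.53 to -0.32) and 0.00 (-0.12 to 0.12).

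The factors of nonsense-mediated decay, which degrades spliced host exons, were split about as all genes were. Of 20, 11 were above 0 in each library, beside 56.7% and 53.9% of genes, with medians of 0.04 and 0.10. UPF3B was the lowest, with 14.6, 3.80 and 9.75 CPM and log2 fold changes of -1.95 (-2.22 to -1.67) and -0.59 (-0.85 to -0.33). SMG8 was highest in OLFM4-knockout at 0.85 (0.71 to 1.0) and MAGOH in the library labelled OLFM4-active at 1.32 (1.07 to 1.58), with 0.37 (0.12 to 0.62) for MAGOH in OLFM4-knockout. UPF1, the central helicase of the pathway, was at 0.46 (0.38 to 0.54) and 0.26 (0.17 to 0.35).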

How the data were processed

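RNA was sequenced from RWPE1 cells in bulk, with 1 library for each of 3 conditions. The deposited table holds whole-number counts per gene that the authors made from uniquely mapped, reversely stranded read pairs, per the study's methods. Trimming, alignment and counting used cutadapt, HISAT2 and featureCounts, per the submitters' processing notes, on GRCh38 with GENCODE genes. The release of the annotation is not given in the sources used here. Groups follow the labels, and each column names its library.

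Symbols, types, positions and lengths came from GENCODE 44, which matched 98.2% of the 58037 identifiers. Library sizes were scaled by TMM (edgeR 4.0.16, R 4.3.3). Log2 fold changes carry an offset of 0.5 counts, as in voom of limma 3.58.1. Genes that averaged 1 CPM or more entered the counts, and a log2 fold change of 1 was the threshold. Fold changes have 95% Clopper-Pearson intervals, conditional on the summed count. PCR duplicates were not told apart, so they cover counting error only. Other steps used Python 3.11.15, pandas 2.3.3, numpy 2.4.6 and scipy 1.17.1, and plots matplotlib 3.10.9. The fold change and its interval were tested on simulated data.

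Totals of 16309906 to 58837147 counts set the precision: 3 counts correspond to 0.165 CPM in OLFM4-wild, 0.0584 in OLFM4-knockout and 0.126 in the library labelled OLFM4-active. With 1 library per condition no test was possible.

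The members and lists were chosen with earlier results of these data known. Any member could be named, those under 1 CPM with their counts. Of the lists of core proteins, assembly factors, release enzymes and decay factors, the highest and lowest gene was named, and UPF1 was added after its values were seen. Promoter windows came from RefSeq. For reads shared between a host and a snoRNA in its exons, the snoRNA counts were subtracted, once per locus. Results of 1 snoRNA are not reported here. Alternatives were other scalings, including the size factors of DESeq2 1.42.0, other offsets and filters, and leaving out members that overlap other genes.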

Additional observations from a re-analysis of the deposited data

How the results depend on the processing

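With library totals in place of TMM the median log2 fold change of the members was 0.19 in OLFM4-knockout against OLFM4-wild, and 1 member in place of 4 was above 1. Between OLFM4-knockout and the library labelled OLFM4-active the median was 0.048 with totals and 0.18 with upper quartile factors. Scaling shifts all genes alike, and the median of all genes moved from 0.10 to -0.26 in the first comparison, so the members' median stayed 0.45 above it. With totals SNHG6 was at -0.19 in OLFM4-knockout against OLFM4-wild. SNHG29 was at -0.053 in the library labelled OLFM4-active. Between that library and OLFM4-knockout, ZFAS1 was at -0.072, SNHG7 at -0.16 and SNHG6 at -0.12. These 5 values had TMM intervals on the other side of 0. The number of members above 0 went from 24 to 21, from 23 to 19 and, between the pair, from 20 to 16 with totals. The other sign changes were of members whose TMM interval included 0, among them SNHG20 and SNHG21 in OLFM4-knockout.

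Without a filter on low counts, 3 members were below -1 in OLFM4-knockout, 3 in the library labelled OLFM4-active and 1 between the pair. At a mean of 10 CPM or more, 2 members were above 1 and 0 below -1 in the library labelled OLFM4-active, and 0 were above 1 in OLFM4-knockout relative to it. Leaving out every member that shares exons with any gene on its strand left 2 members, GAS5 and SNHG26. Their medians were 0.72 in OLFM4-knockout, 0.72 in the library labelled OLFM4-active and 0.0014 between the pair. Above 0 were 2, 2 and 1 of them, above 1 were 0, 1 and 0, and below -1 were 0. These settings change which members are counted.

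Chosen after seeing the data, 2 alternatives dealt with shared reads. Leaving out the 8 members that overlap a gene other than a snoRNA gave 0 below -1 in the library labelled OLFM4-active and 0 above 1 in OLFM4-knockout relative to it. Subtracting snoRNA counts gave 2 above 1 in that last comparison, and SNHG20 moved from -0.26 to 0.76 there. DESeq2 size factors, leaving the 10 most abundant genes out of the library sizes, and offsets of 1 and 5 counts kept the 84 values of each setting within their counting intervals.

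No paired analysis was possible because each condition has 1 library, and no replicate was left out for the same reason. Depth limits the members under 1 CPM most.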
